A study of Mus musculus with 9 samples.

Results

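Sorted oocytes and cultured spermatogonial stem cells (SSC) of C57BL/6 mice were compared probe by probe on 6 of the 9 single-colour Illumina arrays of a series whose title concerns the conversion of SSC into putative female stem cells. Of the 45281 probes on the array, 18612 entered the comparison because their detection p was under 0.01 on all 3 arrays of at least 1 of the groups, and these stood for 10544 named genes. The 3 oocyte arrays hold cells of oocyte label obtained by magnetic sorting, and the 3 SSC arrays hold cells from culture. All 6 carry the same strain, with no transgene, agent or time point in the labels. The labels name neither the surface protein used for the sort nor the age, sex or organ of the animals, and whether replicates came from different cultures or animals is unsaid, so the p-values reflect a spread that may be technical. Sorted cells were set against cultured cells, and the handling cannot be told apart from the cell type. The 3 arrays of the third group, putative female germ cells (PFGC), entered only the normalization between arrays and the estimate of the spread between replicates.

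In the testis, SSC renew themselves and supply all later male germ cells; they depend on glial cell line-derived neurotrophic factor (GDNF) made by Sertoli cells, and their daughters enter meiosis in response to retinoic acid. Oocytes enter meiosis before birth, stop in prophase and then grow within a follicle of granulosa cells, while they lay down a zona pellucida and store the messenger RNA and proteins that the early embryo uses. Both cells descend from primordial germ cells and share part of a germ line program, including the RNA-binding proteins DDX4 and DAZL.

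All 10 oocyte markers chosen for the label check (Zp1, Zp2, Zp3, Gdf9, Bmp15, Figla, Nobox, Oosp1, Nlrp5 and Ooep) were detected on all 3 oocyte arrays, and 5 of them were detected on no SSC array. All 8 SSC markers (Gfra1, Ret, Zbtb16, Id4, Etv5, Lhx1, Nanos2 and Sall4) were detected on all 3 SSC arrays, and 4 were also detected on all 3 oocyte arrays. Markers of other cells were present as well: all 7 Sertoli markers on all 3 SSC arrays, and all 6 granulosa markers on all 3 oocyte arrays, 3 of the latter also on all 3 SSC arrays. Fibroblast, endothelial and erythrocyte markers that passed the filter were detected on all 6 arrays. In such bulk samples, fewer cells of a type and less RNA per cell cannot be told apart.

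The arrays detected 39.2% to 41.8% of probes each, with a median intensity of 108 to 110 on SSC arrays and 116 to 122 on oocyte arrays. Across kept probes, oocyte arrays correlated with SSC arrays at r = 0.812 to 0.828, against 0.976 to 0.988 within SSC and 0.986 to 0.995 within oocytes. These correlations run across probes, which are not independent replicates. SSC replicate 2 stood apart in a limited set of 27 genes that read more than 4-fold above both other SSC arrays, and results that rest on it are given with and without it. No gene on any of the other 5 arrays stood that far above or below both of its partners.

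Most genes differed between the groups. A gene was called at an adjusted p under 0.05 (limma, Benjamini-Hochberg over all kept probes), and each gene was read from its brightest kept probe. Over genes 63.5% and over probes 61.1% were called in either direction. In oocytes 3077 of 10544 genes (29.2%) were called higher than in SSC and 3616 (34.3%) lower, with a median log2 difference of -0.07 and a median standard error (SE) of 0.15. At a fold of at least 2, 1607 genes (15.2%) were called higher and 1508 (14.3%) lower, and at a fold of at least 16 the numbers were 138 and 76. Over probes, 5355 of 18612 (28.8%) were called higher and 6017 (32.3%) lower, so 47.1% of the calls were higher; with no normalization between arrays that share was 58.3%. Oocyte and SSC arrays did not overlap in 7175 genes (68%). Of 598 genes detected on all 3 oocyte arrays and no SSC array, 594 were called higher. Of 382 detected on all 3 SSC arrays and no oocyte array, 379 were called lower. The calls of such genes follow largely from the filter and are no separate support for a list. Every list count below is to be read beside the shares over all genes, 29.2% higher and 34.3% lower.

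**Figure D1:**
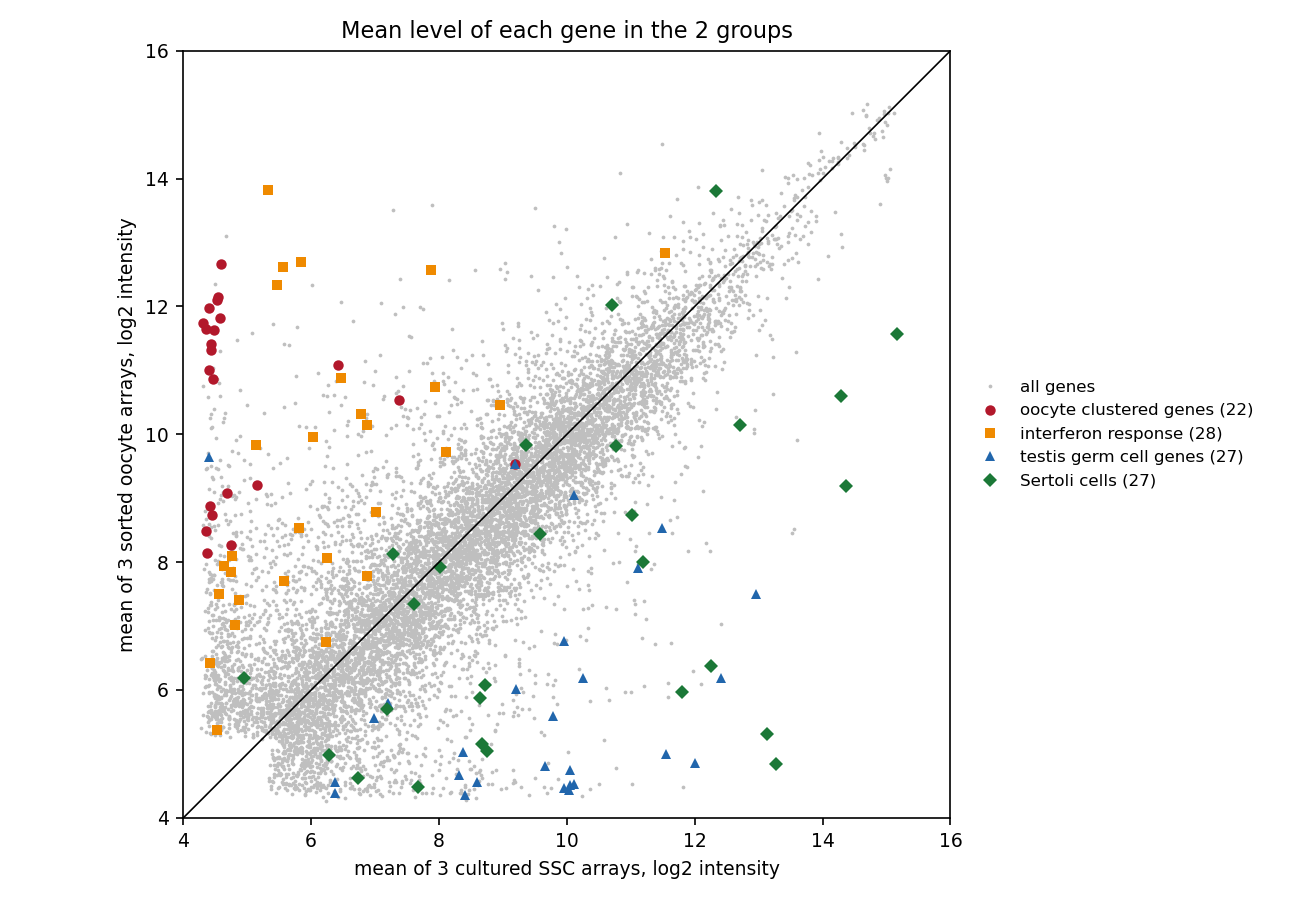
Each point is a gene, placed by its mean log2 intensity on the 3 SSC arrays (horizontal axis) and on the 3 oocyte arrays (vertical axis), with the line of equal levels and 4 gene lists in colour. Differences run from -8.44 to 8.49; oocyte clustered genes and interferon genes lie mostly above the line, and testis germ cell and Sertoli genes mostly below it.

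Genes of the oocyte's coat and secreted factors were higher in the sorted cells, while its transcription factors were split. All 3 zona pellucida genes, which encode the glycoproteins of the oocyte's coat, passed the filter and were called higher, with a median log2 difference of 3.43. Zp2, whose product binds sperm, read 7.91, 8.16 and 8.27 (log2 intensity, as are all levels given here) on oocyte arrays 1 to 3 and 4.61, 4.52 and 4.58 on SSC arrays 1 to 3. Zp3, the partner of Zp2 in the filaments of the coat, read 7.82, 7.76 and 7.94 on oocyte arrays and 4.52, 4.39 and 4.32 on SSC arrays. The oocyte arrays were the higher in both genes with no overlap, and neither gene was detected on any SSC array. The log2 differences were 3.54 ± 0.14 (SE, n = 3 arrays a group, adjusted p = 5.78e-09) for Zp2 and 3.43 ± 0.15 (adjusted p = 1.56e-08) for Zp3. Against the lowest level that counts as detected, these are at least 7.19-fold and at least 5.95-fold. Zp1, which cross-links the filaments, was detected in SSC too and was 5.61-fold higher in oocytes.

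Transcription of the zona genes in the mouse oocyte depends on FIGLA, a basic helix-loop-helix protein that acts through E-boxes. The promoter of Zp3 is shown because it is the zona gene whose window was in the reference used here. The window holds the 250 bases before the start (RefSeq, GRCm38.p6, chr5:135979855-135980104, plus strand), with matches to CANNTG, an E-box pattern that reads the same on both strands, in capitals.
Zp3: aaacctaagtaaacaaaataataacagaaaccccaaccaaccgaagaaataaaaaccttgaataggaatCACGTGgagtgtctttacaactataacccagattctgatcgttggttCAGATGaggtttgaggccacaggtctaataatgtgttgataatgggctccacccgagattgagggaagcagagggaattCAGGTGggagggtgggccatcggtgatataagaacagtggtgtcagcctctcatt
The 3 matches are CACGTG at 181 to 176 bases before the start, CAGATG at 134 to 129 and CAGGTG at 55 to 50. CANNTG is common: 66% of all 27025 promoter windows of this length hold it, as do 56.8% of the 8534 windows of genes tested here. The matches are a description of the letters and not of binding.

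Figla itself read 10.95, 10.94 and 10.60 on oocyte arrays and 4.53, 4.41 and 4.56 on SSC arrays, where it was not detected. Nobox, a homeobox factor needed for follicle growth in the mouse, read 10.42, 10.47 and 10.09 against 5.50, 5.48 and 4.80. Every oocyte array lay several log2 units above every SSC array in both. Figla was at least 47.2-fold higher in oocytes (log2 difference 6.33 ± 0.18, adjusted p = 8.29e-10) and Nobox, detected on 2 of the 3 SSC arrays and near background there, gave a log2 difference of 5.07 ± 0.28 (adjusted p = 9.25e-08). Of 17 listed oocyte transcription factors 16 were on the array and 11 passed the filter; 5 were called higher and 4 lower, with a median of 0.82, and without SSC replicate 2 the number higher was 7. The median is the value of Ybx2, a germ cell RNA-binding protein and 1 of the 27 genes set apart on that replicate: 0.82 (adjusted p = 0.158) with it and 1.56 (adjusted p = 2.5e-05) without it, a gene looked at after its values were seen. Besides Figla and Nobox, the higher members were the homeobox genes Obox5 (6.45), Obox1 (5.11) and Lhx8 (1.84). Those called lower in oocytes were Taf4b (-4.10), Sohlh1 (-2.39), Foxo3 (-0.95) and Sohlh2 (-0.92), each of which is known from male germ cells or other tissues as well as from oocytes. Sohlh1 was bright in both groups, at 9.54, 9.56 and 9.86 on oocyte arrays and 12.05, 12.08 and 12.01 on SSC arrays.

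Among secreted factors and receptors, 13 were listed and on the array, 9 passed the filter and 9 were called higher, with a median of 4.27. Of these, 5 were detected on no SSC array, so that they had entered through the oocyte arrays alone. Bmp15, a growth factor of the TGF-beta family that acts on granulosa cells, read 11.21, 10.98 and 10.91 on oocyte arrays and 4.55, 4.44 and 4.41 on SSC arrays. Its relative Gdf9 read 11.58, 11.61 and 11.83 on oocyte arrays, and on SSC arrays it was detected, at 6.25, 5.72 and 5.36. Bmp15 was at least 54.4-fold higher (log2 difference 6.57 ± 0.20, adjusted p = 1.21e-09) and Gdf9 59.5-fold higher (5.89 ± 0.22, adjusted p = 5.64e-09). The other members called higher included the oocyte-secreted proteins Oosp2 (5.91), Oosp1 (4.66) and Oosp3 (4.05), the growth factor Fgf8 (4.27), and Gja4 (3.80), the connexin of the gap junctions that join oocyte and granulosa cells. Kit, the receptor for KIT ligand on oocytes and differentiating spermatogonia, read 7.73, 7.58 and 7.88 against 4.87, 4.94 and 4.40 on the probe used, a log2 difference of 2.99. A second Kit probe, detected on all 6 arrays, gave -0.47, so the direction of Kit depends on the probe.

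Transcripts of genes whose products oocytes store for the embryo were mostly higher in oocytes. Of 26 listed maternal effect and subcortical complex genes, 22 were on the array and 17 passed the filter; 14 were called higher and 1 lower, with a median of 3.91, and 7 were detected on no SSC array. Padi6, which modifies arginines and is needed for the oocyte's cytoplasmic lattices in the mouse, read 12.11, 11.82 and 11.63 on oocyte arrays and 4.50, 4.67 and 4.51 on SSC arrays. Nlrp5, the scaffold of the complex beneath the oocyte membrane, read 11.54, 11.62 and 11.68 against 4.46, 4.36 and 4.40. Ooep, another subunit of that complex, read 13.44, 13.55 and 13.54 against 7.27, 7.28 and 7.30. The SSC arrays lay close together at the low end in all 3, with Ooep still detected there. Padi6 was at least 96.0-fold higher, Nlrp5 at least 81.5-fold higher (log2 difference 7.21 ± 0.11, adjusted p = 2.04e-11) and Ooep 74.8-fold higher (6.23 ± 0.11, adjusted p = 2.69e-11). Dppa3, which protects the maternal genome from demethylation in the zygote, gave a log2 difference of 5.84 and was detected on 2 of the 3 SSC arrays. Npm2, a histone chaperone of the egg, was at least 33.5-fold higher, and the NLR-family genes Nlrp14, Nlrp9a and Nlrp9c gave log2 differences of 5.70, 4.31 and 4.12.

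Many oocyte transcripts in the mouse come from clusters of recently duplicated genes. Of 30 such genes listed, 26 were on the array, 22 passed the filter and 21 were called higher, with a median of 6.51. Of the 22, 18 were detected on no SSC array and entered through the oocyte arrays alone. The calls of those 18 follow largely from the filter. With probes detected on all 6 arrays, 2 genes of the list were called higher. Oas1d, an oocyte-expressed relative of the antiviral oligoadenylate synthetases, read 11.93, 11.97 and 12.02 on oocyte arrays and 4.33, 4.40 and 4.49 on SSC arrays, at least 105-fold higher (7.57 ± 0.11, adjusted p = 1.53e-11). The others with the largest bounds were Elobl at least 117-fold, Omt2a at least 114-fold, Bcl2l10 at least 93.7-fold, Omt2b at least 89.3-fold, Fbxw15 at least 83.6-fold, Fbxw18 at least 82.7-fold and H1f8, the oocyte linker histone, at least 71.1-fold. Probes of near-identical copies within the Omt2, Fbxw, Obox, Nlrp4 and Oas1 families may pick up each other's transcripts, and their values are uncertain to that extent. Pramel25, of another duplicated family and the second largest difference upwards, read 13.07, 13.09 and 13.12 on oocyte arrays and 4.60, 4.50 and 4.92 on SSC arrays. It was at least 227-fold higher on that probe, and a second kept probe gave a log2 difference of 3.46. E330034G19Rik, a list member whose clone name kept it out of the ranking, was at least 168-fold higher. Ftdc2, at least 66.4-fold higher, completed the oocyte-type genes among the 15 largest.

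Genes that hold the oocyte in meiotic arrest and that store its messenger RNA were split. Of 27 listed for meiotic arrest and maturation, 25 were on the array and 16 passed the filter; 7 were called higher and 4 lower, with a median of 0.15. Mos, the kinase that keeps the mature egg arrested, read 10.23, 10.08 and 10.27 on oocyte arrays and 4.91, 4.60 and 4.38 on SSC arrays, at least 30.4-fold higher. Ccno (4.30) and the germ cell Aurora kinase Aurkc (2.75) were also higher, while Spdya (-3.21), Ccnb3 (-2.23), Cdc20 (-0.87) and Ensa (-0.80) were lower. Spdya and Ccnb3, which act in meiotic cells of the testis too, were detected on 1 and 2 oocyte arrays. Of 22 genes listed for messenger RNA storage and translation, 18 passed the filter, 9 were called higher and 2 lower. The germ cell cap-binding protein Eif4e1b was at least 22.2-fold higher, and Pabpc1l (1.62), Cpeb4 (1.61), Patl2 (1.51) and Cpeb1 (1.04) rose by less, whereas Igf2bp3 fell by 1.31 on the log2 scale.

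**Figure D2:**
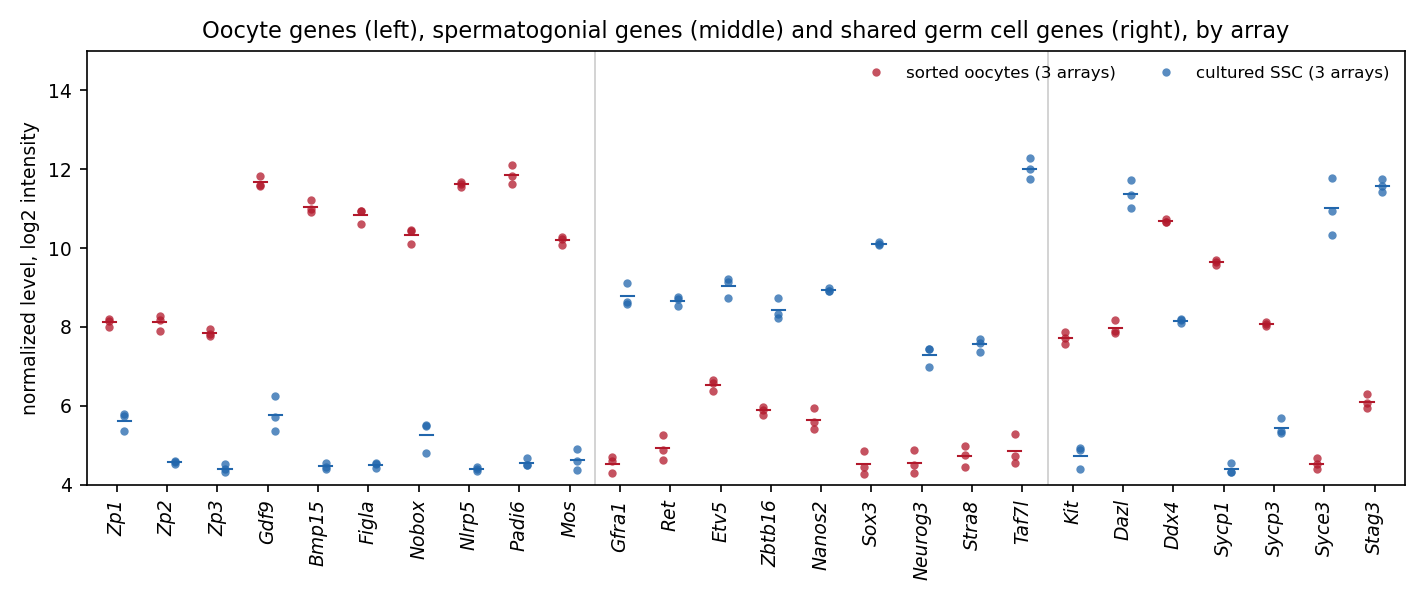
Log2 intensity on each of the 3 oocyte and 3 SSC arrays (points) with group means (short lines) for oocyte genes, spermatogonial genes and germ cell genes used by both sexes. Oocyte genes such as Nlrp5 and Bmp15 sit near the low end on SSC arrays, spermatogonial genes such as Gfra1 and Sox3 sit there on oocyte arrays, and Ddx4 and Dazl go opposite ways.

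On the other side, several receptors and transcription factors of SSC self-renewal were lower in oocytes. Gfra1, the GDNF co-receptor, read 4.30, 4.69 and 4.59 on oocyte arrays, where it was not detected, and 9.10, 8.62 and 8.59 on SSC arrays. Ret, the kinase that signals with it, read 5.26, 4.87 and 4.64 against 8.71, 8.76 and 8.54. No oocyte array came near an SSC array in either gene. Gfra1 was at least 11.9-fold lower in oocytes (log2 difference -4.25 ± 0.19, adjusted p = 1.72e-08) and Ret, detected on 1 oocyte array and otherwise not above background, gave -3.75 ± 0.18 (adjusted p = 2.83e-08). Of 20 genes listed as GDNF receptors and targets, 18 were on the array and 17 passed the filter. Of these, 8 were called lower and 4 higher, beside 34.3% and 29.2% of all genes. The median was -0.06, beside -0.07 over all genes, so the list as a whole did not stand apart by its median. The mean level over those kept was 7.60 to 7.70 on oocyte arrays and 8.23 to 8.44 on SSC arrays. Known GDNF targets among the lower genes were Bcl6b (-2.66), Etv5 (-2.50), Lhx1 (-1.42) and Pou3f1 (-1.16). Those higher in oocytes were Egr3 (2.16), an immediate early gene in many cells, Cxcl12 (1.63), Tec and Cxcr4. Cxcl12 had a second kept probe at -1.39, and the mean of its kept probes was -0.24. Id4, a marker of the most stem-like spermatogonia in the mouse, read 5.05, 4.88 and 5.40 on oocyte arrays and 5.28, 5.81 and 5.95 on SSC arrays. Those groups overlapped; the difference of -0.57 had an adjusted p of 0.0298, and over the alternatives the adjusted p ran from 0.00293 to 0.112.

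Of 35 genes listed for undifferentiated spermatogonia, all on the array, 29 passed the filter, 20 were called lower and 3 higher, and the median was -1.32; 9 were detected on no oocyte array. Sox3, a factor of early progenitors, read 4.28, 4.85 and 4.44 on oocyte arrays and 10.15, 10.10 and 10.09 on SSC arrays. Zbtb16, a zinc finger repressor needed for stem cell maintenance, read 5.90, 5.97 and 5.78 against 8.73, 8.32 and 8.22. Nanos2, an RNA-binding protein of male germ cells, read 5.42, 5.94 and 5.58 against 8.92, 8.90 and 8.98. The SSC arrays were higher without overlap in all of these, and Sox3 was the one not detected in oocytes. Sox3 was at least 30-fold lower (log2 difference -5.59 ± 0.18, adjusted p = 1.93e-09), Nanos2 9.76-fold lower and Zbtb16 5.81-fold lower. Among surface proteins used to enrich SSC, Epcam was at least 25.1-fold lower and Thy1 at least 9.71-fold lower. Cd9 (0.26, adjusted p = 0.076) and Itgb1 (-0.08, adjusted p = 0.634), named after their values were seen, were not called. The mean of the kept Itgb1 probes was -1.02. Itga6 gave -3.73 on the probe used but 0.82 on another, which was detected on all 6 arrays. Foxo1, Upp1 and Tspan8 were the members called higher in oocytes, at 1.62, 1.08 and 0.90.

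Genes of differentiating spermatogonia and of testis germ cells had lower medians still. Of 18 listed for differentiating spermatogonia, 14 passed the filter, 10 were called lower and 3 higher, and the median was -1.99. Of the 14, 6 were detected on no oocyte array and entered through the SSC arrays alone. With probes detected on all 6 arrays, 5 were called lower. Rhox13 read 4.35, 4.34 and 4.35 on oocyte arrays and 10.17, 10.15 and 10.37 on SSC arrays. Stra8, the retinoic acid target that starts meiosis in both sexes, read 4.45, 4.97 and 4.75 against 7.60, 7.36 and 7.71. Neither was detected in oocytes, and Rhox13 was at least 32.6-fold and Stra8 at least 5.10-fold lower. The methyltransferase Dnmt3b was detected in both groups and 5.46-fold lower in oocytes, and the cell cycle gene Ccnd1 fell by 1.77. Of 41 testis germ cell genes listed, 36 were on the array and 27 passed the filter; 25 were called lower and 1 higher (2 higher with the replicate number as a block), the median was -4.03 and 13 were detected on no oocyte array. Taf7l, a TFIID subunit of male germ cells, read 4.56, 5.27 and 4.74 on oocyte arrays and 12.28, 11.99 and 11.74 on SSC arrays, a log2 difference of -7.15 ± 0.26 (adjusted p = 4.69e-09) with 1 oocyte array detected. Usp26, an X-linked deubiquitinase, was at least 81.1-fold lower, the testis tubulins Tuba3b and Tuba3a 74.9-fold and 44.0-fold lower with near-identical sequences, Tktl1 at least 28.5-fold lower and Tex101 at least 28.8-fold lower.

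Meiosis is shared by both germ lines, and its genes went both ways. Of 35 listed for meiotic prophase, 29 were on the array and 23 passed the filter; 18 were called lower in oocytes and 4 higher, the median was -2.34, and 8 were detected on no oocyte array and 2 on no SSC array. Sycp1, the transverse filament of the synaptonemal complex, read 9.66, 9.58 and 9.70 on oocyte arrays and 4.33, 4.54 and 4.32 on SSC arrays. Sycp3, of its lateral elements, read 8.01, 8.08 and 8.14 against 5.30, 5.68 and 5.35. Syce3, of its central element, ran the other way at 4.39, 4.53 and 4.67 against 10.93, 11.78 and 10.33. So 3 components of the same structure split without overlap between the groups: Sycp1 was at least 20.8-fold higher in oocytes, Sycp3 was 6.20-fold higher and Syce3 was at least 56.1-fold lower (-6.48 ± 0.29, adjusted p = 1.81e-08). Sycp2 (2.85) was higher too. The meiotic cohesins Stag3 and Smc1b were 44.5-fold and 8.78-fold lower, Rec8 gave -3.05 with 2 oocyte arrays detected, and Spo11, the enzyme that makes the double-strand breaks, was at least 8.75-fold lower. Tex11 was at least 21.9-fold lower, Meioc at least 5.33-fold lower, and Meiob gave -3.17 with 1 oocyte array detected.

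The shared germ cell regulators did not move together either. Ddx4, a helicase of germ granules, read 10.65, 10.65 and 10.73 on oocyte arrays and 8.17, 8.09 and 8.21 on SSC arrays. Dazl, a translational regulator, read 7.90, 8.19 and 7.83 against 11.73, 11.34 and 11.02. Both were detected on all 6 arrays, Ddx4 with oocytes higher and Dazl with SSC higher. Ddx4 was 5.74-fold higher (2.52 ± 0.11, adjusted p = 1.52e-08), with a second probe at -0.84, and Dazl was 10.5-fold lower (-3.39 ± 0.21, adjusted p = 2.66e-07). In the germ cell identity list 23 of 29 genes on the array passed the filter, with 12 called higher and 10 lower and a median of 0.39. Those higher included Dppa5a (4.01), Ifitm3 (3.22, an interferon-inducible gene), Tcl1 (3.16) and Esrrb (2.64), and those lower included Zfp42 (-4.62), Prdm1 (-3.92) and Pou5f1 (-1.85). Pou5f1, the pluripotency factor, gave -3.08 on a second probe.

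The piRNA pathway, which silences transposons with small RNAs, leaned towards SSC: 21 of 23 genes on the array passed the filter, 13 were called lower in oocytes and 4 higher, with a median of -0.73. Mov10l1, the helicase that feeds precursors into the pathway, fell by 4.06, Gpat2 by 3.87 and Piwil2 by 3.50, and Tdrkh was 6.16-fold lower. Ddx4, Dnmt3l and Tdrd5 were among those higher. Dnmt3l, the cofactor of DNA methylation in germ cells, read 8.40, 8.29 and 8.72 on oocyte arrays and 5.84, 5.90 and 5.51 on SSC arrays, 6.59-fold higher in oocytes. In a list of DNA methylation and chromatin genes 23 passed the filter, with 9 called higher and 6 lower, beside 29.2% and 34.3% of all genes. Kdm1b, needed for maternal imprints in the mouse, was 2.44-fold higher and Dnmt1 2.15-fold higher. Imprinted genes went both ways, to be read beside the same shares. Of 14 paternally expressed genes that passed the filter 6 were higher and 7 lower. Of 14 maternally expressed genes 3 were higher and 6 lower. Dlk1 read 9.87, 9.79 and 10.06 on oocyte arrays and 13.51, 13.37 and 13.92 on SSC arrays, and Igf2 read 9.88, 9.93 and 10.26 against 12.82, 12.72 and 13.25. These paternally expressed genes fell by 3.70 and 2.91 on the log2 scale in oocytes, while Nap1l5 (3.44), Nnat (2.30) and Peg13 (1.74) were higher.

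**Figure D3:**
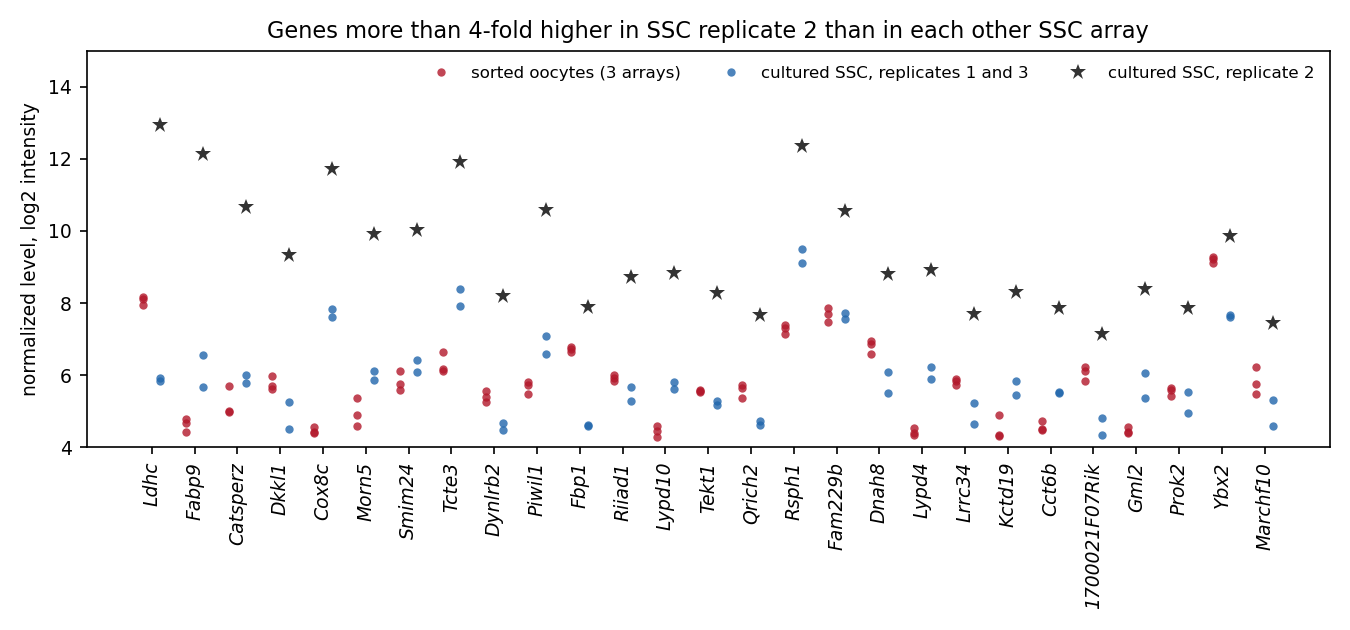
Log2 intensity on the 3 oocyte and 3 SSC arrays for genes that read more than 4-fold higher on SSC replicate 2 than on each other SSC array. In Ldhc the replicate reads 12.95 against 5.92 and 5.83 on its partners.

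SSC replicate 2 read higher than its partners for a set of genes, many of them known from late spermatogenesis. The 27 genes more than 4-fold above both partners include Ldhc, the lactate dehydrogenase of spermatocytes and sperm, Fabp9, a lipid-binding protein of the sperm head, Catsperz of the sperm calcium channel, and the sperm tail or cilium genes Tekt1, Rsph1 and Dnah8. They were listed after their values were seen, and several, such as Rsph1 at 9.12 and 9.49, were well above background on SSC arrays 1 and 3 too. Ldhc read 5.92, 12.95 and 5.83 on SSC arrays 1 to 3 and 7.94, 8.10 and 8.17 on oocyte arrays; the difference of -0.16 (adjusted p = 0.933) became 2.20 (adjusted p = 2.95e-06) without that replicate. Fabp9 read 6.55, 12.13 and 5.66 on SSC arrays against 4.66, 4.42 and 4.79, and its difference of -3.49 became -1.48. Piwil1, the piRNA-binding protein of spermatocytes and spermatids, read 7.09, 10.58 and 6.60 against 5.73, 5.49 and 5.81, and its -2.41 became -1.17. Of 29 spermatid genes on the array 10 passed the filter, 7 were called lower in oocytes and 1 higher, and without that replicate 7 were lower and 2 higher. Of the 10, 6 were detected on no oocyte array, and with probes detected on all 6 arrays 1 was called lower. The mean level over those 10 ran from 6.20 to 8.23 on SSC arrays and from 5.68 to 5.87 on oocyte arrays. The meiotic prophase, piRNA and testis germ cell counts did not change without that replicate, and the protamine gene Prm1 did not pass the filter.

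Sertoli genes included the largest difference downwards of all. Of 37 listed, 31 were on the array and 27 passed the filter; 20 were called lower in oocytes and 5 higher, the median was -2.57, and the mean level over those kept was 7.61 to 7.69 on oocyte arrays and 10.05 to 10.13 on SSC arrays. Defb36, a defensin of Sertoli cells, read 4.95, 4.62 and 4.94 on oocyte arrays and 13.38, 13.31 and 13.14 on SSC arrays. Cst9, a cystatin made by Sertoli cells, read 5.06, 5.76 and 5.10 against 13.42, 13.35 and 12.64, and Rhox8, their androgen-responsive homeobox gene, 6.13, 6.51 and 6.49 against 12.14, 12.08 and 12.57. The SSC arrays were uniformly high in all 3. Defb36 was at least 268-fold lower in oocytes (log2 difference -8.44 ± 0.17, adjusted p = 5.85e-11), Cst9 gave -7.83 ± 0.28 with 1 oocyte array detected, and Rhox8 was 59.0-fold lower (-5.88 ± 0.21). Ttyh1 (-5.83), the tight junction gene Cldn11 (-5.19), Mro (-3.70), Defb19 (-3.68) and Aard (-3.59) followed. Sertoli transcripts moved with the spermatogonial genes that were lower in oocytes, and their part in those differences was not tested.

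The other genes among the 15 largest downwards that belong to no list were the riboflavin transporter Slc52a3 (-6.00), the cystatin relative Cstdc1 (at least 47.4-fold), Rarres1 (at least 39.3-fold), Map3k21 (-5.69) and the X-linked Mageb4 (-5.67). Rhox homeobox genes, an X-linked reproductive cluster, had 4 of 9 genes on the array past the filter and all of those 4 lower in oocytes, Rhox8, Rhox13, Rhox5 (-3.51) and Rhox10 (-3.29). Of the 4, 2 were detected on no oocyte array, so their calls follow largely from the filter. With probes detected on all 6 arrays, 1 was called lower.

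Genes of the follicle's granulosa and cumulus cells were mostly higher in oocytes. Of 36 granulosa and cumulus genes listed, 31 were on the array and 25 passed the filter; 20 were called higher and 5 lower, the median was 1.46, 11 were detected on no SSC array, and the mean level over those kept was 8.75 to 8.77 on oocyte arrays and 6.78 to 6.90 on SSC arrays. Nr5a2, a nuclear receptor needed for ovulation, read 10.86, 10.89 and 10.35 on oocyte arrays and 4.73, 4.99 and 4.92 on SSC arrays, at least 43.2-fold higher. Esr2, the follicle's main oestrogen receptor, gave at least 21.7-fold, Bmpr1b, a receptor used by oocyte BMPs, at least 15.2-fold higher, and the activin antagonist Fst at least 9.95-fold higher. Inha, the inhibin subunit made by granulosa and Sertoli cells alike, was bright in both groups, at 13.90, 13.82 and 13.69 against 12.33, 12.36 and 12.33, a log2 difference of 1.46. Fshr, the receptor for follicle-stimulating hormone in both of these cell types, was lower in oocytes at -1.13. Amhr2, another of the 6 granulosa markers and named after its values were seen, was lower too, at -1.08. The markers Inha, Nr5a2, Esr2 and Foxl2 were called higher. The part of granulosa transcripts in the oocyte gene differences was not tested.

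Steroidogenic genes went both ways. Of 14 steroidogenic genes on the array 10 passed the filter, 7 were called higher and 3 lower, with a median of 1.38. Cyp11a1, which makes pregnenolone, read 11.85, 11.92 and 11.86 on oocyte arrays and 7.28, 7.26 and 7.37 on SSC arrays, 23.7-fold higher in oocytes, though another probe gave -0.75. Akr1c18, which inactivates progesterone in the ovary, was at least 28.4-fold higher, and Cyp17a1 and Star gave 2.92 and 2.08. Cyp11a1, Cyp17a1 and Star are used by ovary and Leydig cells alike. Among the lower genes, Hsd17b3, the last step to testosterone in Leydig cells, read 4.49, 4.53 and 4.41 on oocyte arrays and 9.59, 9.71 and 9.96 on SSC arrays, at least 23.4-fold lower, and Insl3, a Leydig cell hormone, read 7.91, 8.07 and 8.48 against 10.12, 10.10 and 10.18, 3.93-fold lower.

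**Figure D4:**
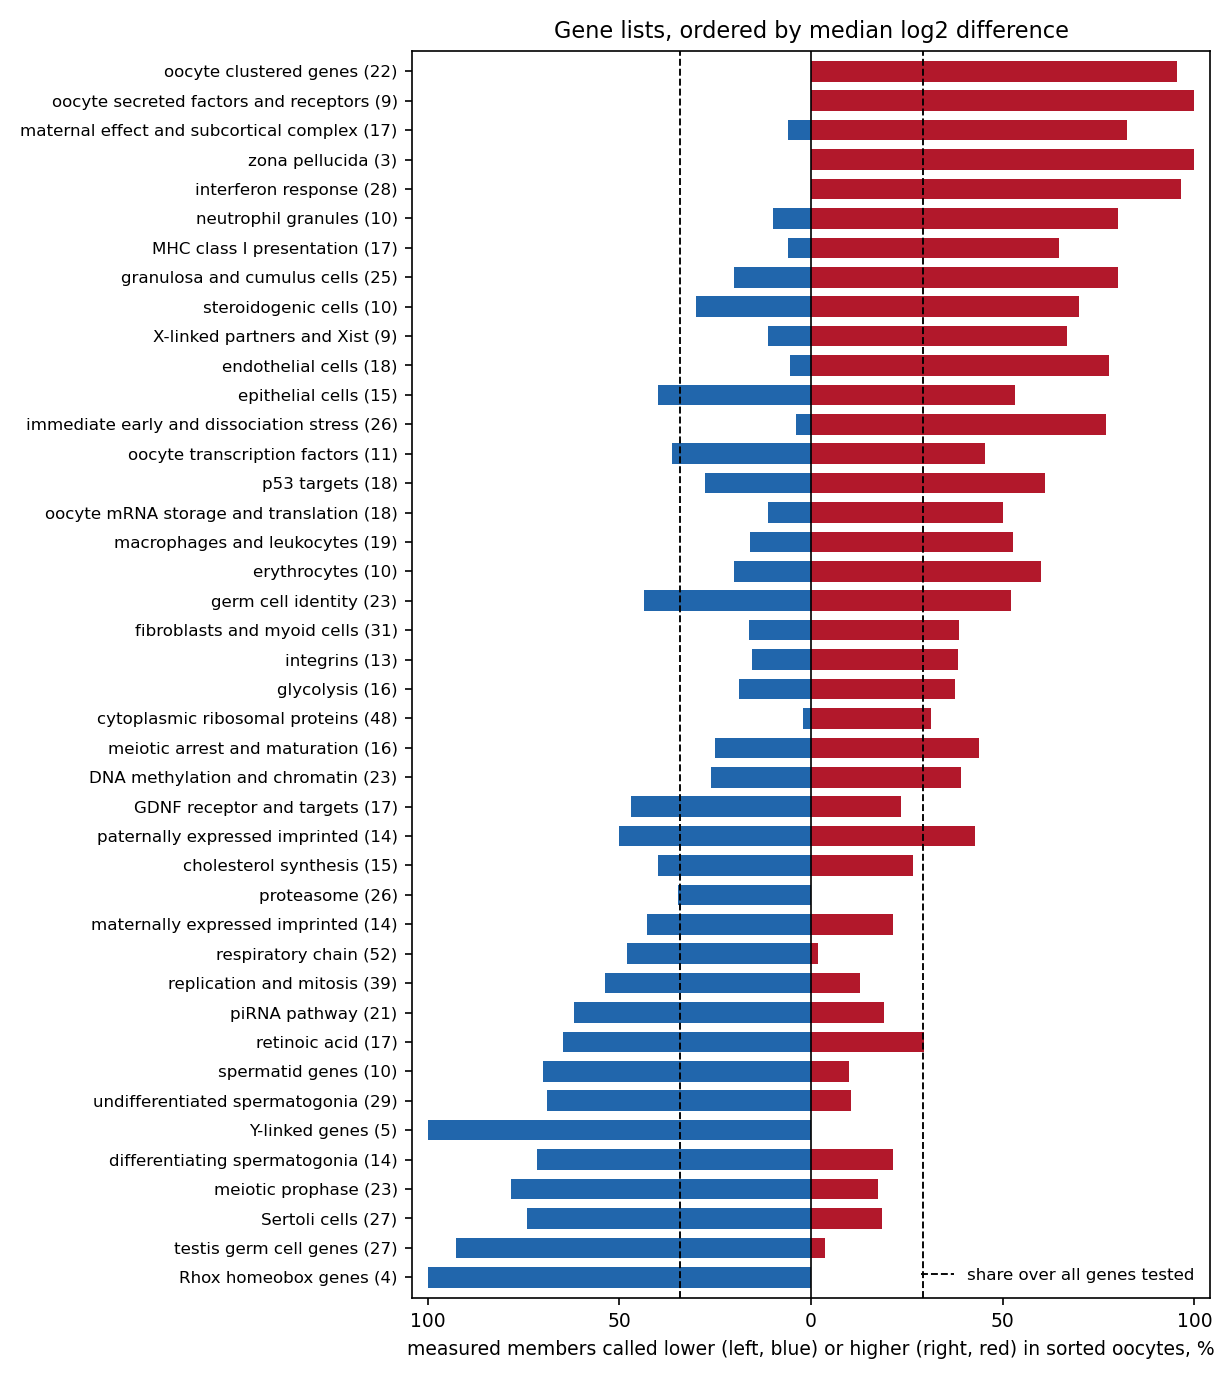
For each gene list, with its number of members that passed the filter in brackets, the bars give the percentage of those members called higher (right) or lower (left) in oocytes, and dashed lines give the shares over all genes tested (29.2% and 34.3%). Lists are ordered by median log2 difference, from oocyte clustered genes (6.51) at the top to Rhox genes (-4.70) at the bottom.

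Blood, vessel and connective tissue lists were higher in oocytes or mixed. Of 18 endothelial genes that passed the filter, 14 were called higher and 1 lower (2 lower with the replicate block, and 2 without SSC replicate 2). The median was 1.14 and the mean level was 8.42 to 8.49 on oocyte arrays and 6.95 to 7.20 on SSC arrays. Icam2 was at least 26.2-fold higher, Emcn 12.8-fold and Cldn5 6.70-fold. Neutrophil granule genes had 10 of 16 past the filter, 8 higher and 1 lower, with a median of 2.07; S100a8, an abundant protein of these cells, read 10.08, 10.19 and 10.01 on oocyte arrays and 8.04, 8.52 and 6.49 on SSC arrays. Macrophage and leukocyte genes had 19 of 24 past the filter, 10 higher and 3 lower, and a median of 0.48, led by Cd14 (3.23) and Cd74 (2.15). The macrophage receptor gene Mrc1 was lower (-0.98), Csf1r (-0.05) and Adgre1 (0.37), named after their values were seen, were not called, and the pan-leukocyte gene Ptprc did not pass the filter. Of 31 fibroblast and myoid genes, 12 were higher and 5 lower (8 lower with the replicate block, and 8 without SSC replicate 2), with a median of 0.28. Timp1 was 5.90-fold and Lum 4.83-fold higher, and the smooth muscle genes Myh11 (-1.06) and Acta2 (-0.71) were lower, while Tagln, of the same muscle and named after its values were seen, was higher at 0.52 (adjusted p = 0.0378). The globin gene Hba-a1 was bright throughout, at 15.08, 14.96 and 15.05 against 14.70, 14.52 and 14.15. Epithelial keratins Krt8 and Krt18 were 19.8-fold and 7.44-fold higher, while the junction genes Lsr (-3.45) and Cdh1 (-1.92) were lower.

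Xist and Y-linked transcripts were read next, as markers of the sex of the cells. Xist, the RNA that silences an X chromosome in female cells, read 11.11, 11.21 and 11.42 on oocyte arrays and 6.97, 6.92 and 7.36 on SSC arrays, 18-fold higher in oocytes (log2 difference 4.17 ± 0.17, adjusted p = 1.19e-08). Eif2s3y, a translation factor gene on the Y chromosome, read 4.31, 4.23 and 4.37 against 8.41, 8.31 and 9.0 and was at least 10.3-fold lower. Oocyte arrays were high for Xist and without detected Eif2s3y, while SSC arrays had Eif2s3y and a lower level of Xist that was still detected. Of 10 Y-linked genes on the array 5 passed the filter and 5 were called lower. Of the 5, 4 were detected on no oocyte array, and with probes detected on all 6 arrays 0 were called lower. Usp9y was at least 9.13-fold and Kdm5d at least 1.86-fold lower. Uty gave -0.52, with an adjusted p of 0.0349 that ran from 0.00969 to 0.171 over the alternatives. The X-linked partners Ddx3x (1.98), Eif2s3x (1.63) and Kdm6a (1.22) were higher, whereas Kdm5c (0.49, adjusted p = 0.159) and Usp9x (0.09, adjusted p = 0.801), named after their values were seen, were not called. Growing oocytes keep both X chromosomes active, and Xist is made by female somatic cells, whose markers are given above; the part of these cells in the Xist level was not tested.

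The largest difference upwards of all belonged to an interferon-response gene. Interferons are secreted antiviral signals, and cells that receive them switch on genes whose products block viral RNA, tag proteins or present antigen. Cxcl10, a chemokine of this response, read 13.79, 13.85 and 13.82 on oocyte arrays and 5.09, 5.57 and 5.33 on SSC arrays. Rsad2, which makes an antiviral nucleotide, read 12.68, 12.72 and 12.68 against 5.93, 5.70 and 5.91. Isg15, a ubiquitin-like protein, read 12.61, 12.51 and 12.58 against 7.92, 8.0 and 7.70. The oocyte arrays lay within a narrow band in each gene and far above the SSC arrays. Cxcl10, detected on 2 of the 3 SSC arrays and near background there, gave a log2 difference of 8.49 ± 0.14 (adjusted p = 2.2e-11), Rsad2 was 115-fold higher (6.85 ± 0.11, adjusted p = 2.2e-11) and Isg15 26.0-fold (4.70 ± 0.13, adjusted p = 6.93e-10). A second Cxcl10 probe gave 3.39. Usp18, which removes ISG15 from proteins, and Ifit3, an antiviral protein of the IFIT family, were 132-fold and 117-fold higher.

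Of 36 interferon-response genes listed, 34 were on the array and 28 passed the filter; 27 were called higher, the median was 2.88, and 7 were detected on no SSC array. The mean level over those 28 was 9.42 to 9.46 on oocyte arrays and 6.14 to 6.21 on SSC arrays. The kept member not called was Psmb9 (0.52, adjusted p = 0.0833), which was named after its values were seen. Ifit1, Oas1a, Oas3, Ifih1, Iigp1 and Xaf1 did not pass the filter. Of 21 genes for antigen presentation by MHC class I, 17 passed the filter, 11 were called higher and 1 lower, and the median was 1.58. Tap2, a subunit of the peptide transporter, was 8.30-fold higher, the class I chains H2-K1 and H2-D1 were 5.56-fold and 4.62-fold higher, and their light chain B2m gave 1.58. Leukocyte and neutrophil markers were mixed in the same arrays, with more called higher than lower by the counts given above. The part of these cells in the interferon gene differences was not tested.

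Interferon acts on these genes through a response element whose core is written here as GAAA, any 2 bases and GAAA. The promoters of 4 of the genes above are shown, because the interferon genes are among the largest differences and the core can be located in each window. Each holds the 250 bases before the start (RefSeq, GRCm38.p6), written along the gene, with the core on either strand in capitals. The windows are chr5:92348890-92349139 on the minus strand for Cxcl10, chr19:34583279-34583528 on the plus strand for Ifit3, chr12:26456453-26456702 on the minus strand for Rsad2 and chr4:156200819-156201068 on the minus strand for Isg15.
Cxcl10: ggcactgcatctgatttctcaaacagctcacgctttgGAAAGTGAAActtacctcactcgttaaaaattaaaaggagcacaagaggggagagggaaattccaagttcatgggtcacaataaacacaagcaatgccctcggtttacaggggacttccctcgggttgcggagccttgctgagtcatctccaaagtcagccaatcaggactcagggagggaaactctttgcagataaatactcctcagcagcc
Ifit3: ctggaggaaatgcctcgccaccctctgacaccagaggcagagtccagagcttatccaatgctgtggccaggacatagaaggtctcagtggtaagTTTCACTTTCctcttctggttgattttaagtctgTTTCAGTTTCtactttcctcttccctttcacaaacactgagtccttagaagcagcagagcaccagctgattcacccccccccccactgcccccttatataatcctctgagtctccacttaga
Rsad2: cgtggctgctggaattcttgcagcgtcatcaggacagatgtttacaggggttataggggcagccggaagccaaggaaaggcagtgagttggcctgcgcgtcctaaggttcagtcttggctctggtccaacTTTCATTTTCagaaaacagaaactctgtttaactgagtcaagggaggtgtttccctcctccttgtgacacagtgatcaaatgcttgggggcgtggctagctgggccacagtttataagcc
Isg15: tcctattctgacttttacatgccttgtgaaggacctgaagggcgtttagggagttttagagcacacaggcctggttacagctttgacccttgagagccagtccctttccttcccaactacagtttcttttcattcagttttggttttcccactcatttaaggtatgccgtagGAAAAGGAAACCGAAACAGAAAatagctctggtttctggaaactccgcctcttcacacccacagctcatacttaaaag
Cxcl10 has 1 match, 213 to 204 bases before the start, and Rsad2 has 1 on the opposite strand, 120 to 111 bases before it. Ifit3 has 2 on the opposite strand, at 156 to 147 and 122 to 113, and Isg15 has 3 that overlap between 78 and 57 bases before the start. The core is rare: 3.04% of all 27025 windows hold it, and 2.59% of the 8534 windows of genes tested. Among members of the interferon list that were tested and have a window, 10 of 24 (41.7%) hold it, against 3.87% of genes called higher and 2.16% of genes called lower. A match is a description of the letters and not of binding.

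**Figure D5:**
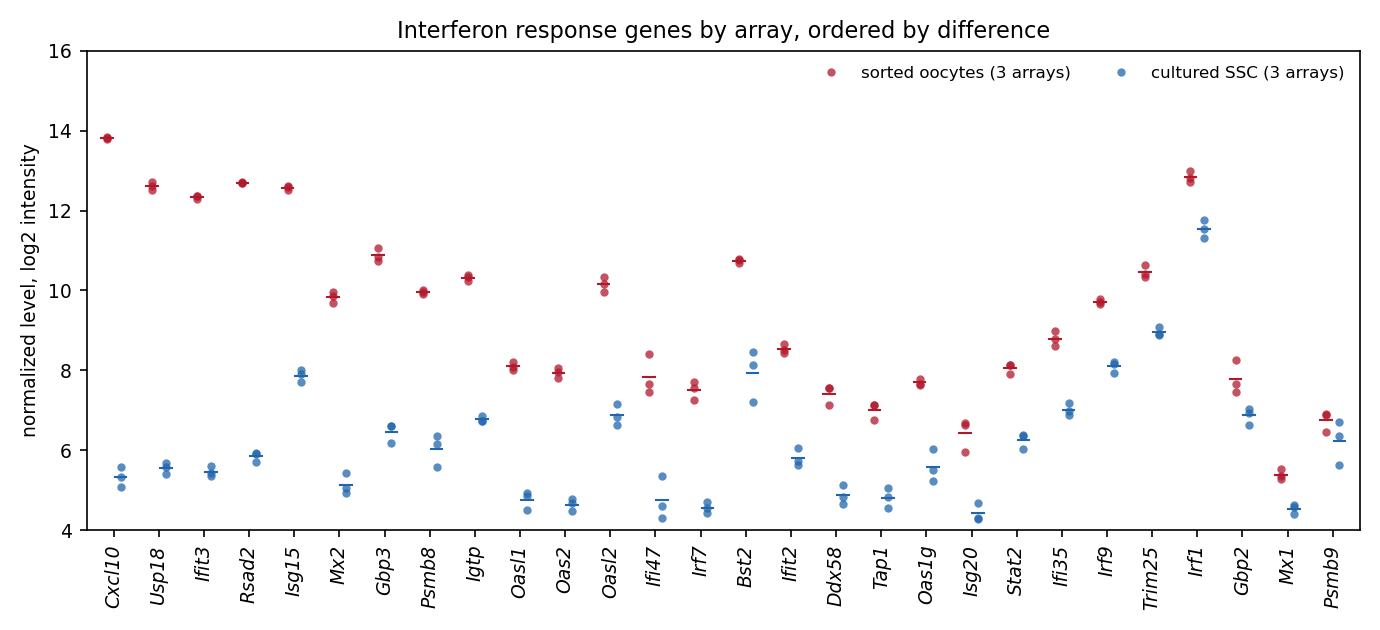
Log2 intensity of interferon-response genes on each of the 3 oocyte and 3 SSC arrays (points), with group means (short lines). Cxcl10 reads 13.79 to 13.85 on oocyte arrays and 5.09 to 5.57 on SSC arrays, and no plotted gene called higher has overlapping groups.

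Stress and p53 target genes were more often called higher than lower in the sorted cells. Cdkn1a, the cell cycle inhibitor that p53 induces, read 12.46, 12.45 and 12.13 on oocyte arrays and 4.43, 4.44 and 4.61 on SSC arrays, where it was not detected. It was at least 135-fold higher (7.85 ± 0.15, adjusted p = 5.85e-11). Of 18 p53 targets that passed the filter 11 were called higher and 5 lower, beside 29.2% and 34.3% of all genes, with a median of 0.68. Fas (3.26), Plk2 (2.31), Gadd45a (2.06) and Zmat3 (1.23) were among the higher. The lowest of the 5 lower members was Gtse1 (-0.91). Immediate early and dissociation-stress genes had 26 of 29 past the filter, 20 higher and 1 lower, and a median of 0.93. Ier3, an early response gene, read 14.46, 14.56 and 14.60 against 11.48, 11.41 and 11.55, and the heat shock genes Hspa1b, Hspa1a and Hsph1 were 6.13-fold, 5.53-fold and 4.19-fold higher. Myc was the lower member, at -1.33. Fos (-0.06) and Egr1 (-0.01), looked at after their values were seen, were not called.

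Replication genes were more often called lower than higher in oocytes, by smaller steps than the germ cell genes above. Of 44 replication and mitosis genes on the array 39 passed the filter, with a median of -0.53. Of these, 21 were called lower, 5 higher and 13 neither, beside 34.3% lower and 29.2% higher over all genes. The helicase subunits Mcm2, Mcm5 and Mcm3 fell by 1.47, 1.30 and 1.12, Orc1 by 1.38, Cdk2 by 1.20 and Rrm1 by 1.06. Cdk6 (0.70) was the highest of the 5 higher members, and Pcna (0.04) and Cdk1 (0.21) were not called. Cdk6, Pcna and Cdk1 were named after their values were seen. Of 52 respiratory chain genes 25 were called lower, 1 higher (2 higher with the replicate block) and 26 neither, with a median of -0.34; Ndufb9 fell by 1.00 and Cyc1 by 0.79. The count of 25 depends on the scaling, being 5 with no normalization between arrays, and was 19 without SSC replicate 2. Ribosomal protein genes called higher and proteasome genes called lower were near the shares over all genes, and calls the other way were well below them. Of 48 ribosomal protein genes 15 were called higher, beside 29.2% of all genes, and 1 lower (0 without SSC replicate 2), beside 34.3%. Their median was 0.16, and with no normalization 28 were called higher. Of 26 proteasome genes 9 were lower, beside 34.3% of all genes, and 0 higher, beside 29.2%. The number lower was 3 with no normalization and 14 with the authors' processed intensity. Psma8, the subunit of testis germ cells, was the largest at -2.67.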

How the data were processed

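Per the labels' protocols, RNA was extracted with Trizol and a column kit with DNase I and labelled as biotin-cRNA; per the submitters' processing notes GenomeStudio was used, of a version not given in the sources used here. Linear signal intensity was taken from the authors' deposited non-normalized table, which gives an intensity and a detection p-value for each probe and array, per the file headers. The authors also deposited a processed intensity, used as an alternative.

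The normexp model of limma 3.58.1, run in R 4.3.3, removed background, with detection p-values standing for negative controls and an offset of 16. All 9 arrays were quantile normalized and taken to log2. Probes with a detection p under 0.01 on all 3 arrays of the oocyte or of the SSC group were kept; 16092 of the 18612 kept probes had 1 symbol. Array annotation named 34885 probes, and 34807 symbols were updated by Entrez ID from a RefSeq table (GRCm38.p6), which also gave chromosomes. Probe sequences were not aligned. A gene is read from whichever kept probe was brightest on average over the 6 arrays; several probes were kept for 3889 genes, and in 747 they fell on both sides of 0. Levels do not compare 1 gene with another, and precision is limited by the number of arrays.

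The 3 groups entered 1 fit (lmFit, eBayes, two-sided), and oocytes minus SSC was tested, with Benjamini-Hochberg adjustment over all kept probes and a threshold of 0.05. The script was tested on simulated data. "At least" folds, used where the dim group was detected on no array, set the bright group's mean against, on each dim array, the higher of the probe's value and the lowest normalized value of a detected probe. Same-numbered oocyte and SSC arrays deviated together (r = 0.25, 0.16 and 0.44), but SSC 1 with oocyte 2 (0.22) and SSC 2 with oocyte 1 (0.17) did so too. The number was taken as a possible pairing, which rests on the data and not on the labels. The main fit holds no block for it, so SE and adjusted p-values are without pairing unless said. The fit with the number as a block is given where it matters.

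The members, the 42 gene lists and the tests were chosen with earlier results of these data known, and lists are described by counts and medians only. Lsh, Fmn2 and Gsdme were dropped from lists and Fabp9 moved from the Sertoli to the spermatid list after values were seen. Named genes are first the 15 largest called differences each way among genes with 1 symbol whose groups do not overlap. That ranking leaves out clone, model and predicted names. To it were added, from each list, its called members with the largest differences, 8 at most, and a set of germ cell and sex-linked genes. Others are said to be named after their values were seen. Alternatives covered the arrays fitted, normalization, background, filter, probe choice, variance settings, the replicate block and leaving out arrays. Leaving out all arrays numbered 3, and a block with only the 6 arrays, were added after the data were seen.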

Additional observations from a re-analysis of the deposited data

How the results depend on the processing

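The 4 counts of calls kept within 1.5 times of their values under most alternatives. Genes called at a fold of at least 2 were fewer with no background correction (927 higher, 795 lower), with the authors' processed intensity (878 and 719) and, for higher genes, with probes detected on all 6 arrays (933), a filter that removes genes present in 1 group by construction. The same filter lowered list counts. Called higher, oocyte clustered genes went from 21 to 2, maternal effect genes from 14 to 5 and zona pellucida genes from 3 to 1. Called lower, testis germ cell genes went from 25 to 11 and meiotic prophase genes from 18 to 5. Leaving out 1 array gave 4859 to 5437 probes higher and 5362 to 6107 lower. With the replicate block 6046 probes were higher and 6788 lower, no named gene changed its verdict, and no list count moved by over 1.5 times beyond those given beside the counts. Without the arrays numbered 3 the probe counts were 5707 and 6258, and with the block on only the 6 arrays 5784 and 6503. With no normalization between arrays they were 5807 and 4149, and the median over genes moved from -0.07 to 0.08. Of 313 named genes, 291 kept their verdict under every alternative run and 22 did not. The reversed values were Itga6 at 0.20 and Kit at -0.47 with probes detected on all 6 arrays, which swaps the probe, Cxcl12 at -0.24 as the mean of its kept probes, and Ldhc, which ranged from -1.36 to 2.20 as single SSC arrays were left out. Fabp9, Piwil1 and Id4 lost their calls under some alternatives, with adjusted p up to 0.105, 0.0631 and 0.112.

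Levels near the lowest detected signal (5.13 to 5.33 across the 6 arrays) carry little order; folds against groups with no detected array are bounds, and folds are left out for named genes detected on only some arrays of the lower group.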

Other observations

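X-linked genes leaned towards SSC. Of 366 X-linked genes tested, 99 (27.0%) were called at least 2-fold lower in oocytes and 41 (11.2%) at least 2-fold higher, with a median log2 difference of -0.19, a median that chromosome 4 shares. Over 10154 autosomal genes the shares were 13.8% lower and 15.4% higher, and the highest share lower on any autosome was 17.1%, on chromosome 7. Taf7l, Usp26, Tktl1, Sox3, Rhox8, Rhox13 and Mageb4 are among the X-linked genes lower in oocytes. No test was made of this difference between chromosomes.

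Metabolic and adhesion genes were mixed, as were all genes, of which 29.2% were called higher and 34.3% lower. Of 16 glycolysis genes that passed the filter 6 were called higher and 3 lower, with Pfkp (2.52), the glucose transporter gene Slc2a1 (1.89) and Ldha (1.86) higher and Aldoc (-2.05) and Ldhb (-1.24) lower. Cholesterol synthesis genes gave 4 higher and 6 lower of 15, near both of those shares. Sc5d (1.46) and Hsd17b7 (1.44) were higher and Lss (-1.79) and Mvd (-1.25) lower. Of 17 genes of the retinoic acid pathway 5 were higher and 11 lower: the carrier protein gene Crabp2 rose by 2.71 on the log2 scale and its relative Crabp1 fell by 3.87, and the enzymes that break it down, Cyp26b1 and Cyp26a1, fell by 2.22 and 1.67. Among 13 integrin genes 5 were higher, led by Itga5 (3.41), Itga2 (2.62) and Itgav (2.22), and 2 lower, with Itgae at -2.52. Of 10 erythrocyte genes 6 were higher and 2 lower, Slc4a1 at 2.04 and Gata1, which Sertoli cells also make, at -2.10. Of 15 epithelial genes 8 were higher and 6 lower, and of 9 X-linked partners of Y genes, Xist included, 6 were higher and 1 lower.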
